A study of Mus musculus with 9 samples.

Results

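The genes described here encode the conjugating enzymes of the liver, the second phase of the metabolism of drugs, hormones, bilirubin and bile acids. They were chosen by symbol alone: every gene of the deposited table named as a UDP-glucuronosyltransferase of families 1 to 3 (Ugt), a cytosolic sulfotransferase (Sult, with Sult2a8 left out) or a soluble glutathione S-transferase (Gst). The rule found 53 of 21470 genes, of which 18 were Ugt, 14 Sult and 21 Gst. The study sequenced RNA from whole mouse liver to ask how ligustilide (LIG), a phthalide from the oil of Angelica and Ligusticum roots, affects gene expression once the bile duct has been ligated (BDL), which stops bile flow and serves as a model of cholestatic fibrosis. There were 3 libraries in each of 3 groups: sham-operated mice, mice with BDL, and ligated mice given LIG (BDL+LIG). A dose of 10 mg/kg is stated for LIG in the design text, but the titles of its samples read 20, so the dose is uncertain. The sources used here give no strain, sex or age and no route or duration of treatment. BDL+LIG mice carried the same ligation as BDL mice, and a sham group given LIG was not analysed here. Whether the 3 libraries of a group are from different mice is not stated in the labels, so p-values speak only of the spread among libraries, which could be technical.

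Conjugation attaches a polar group to a substrate, which makes it more soluble in water and ready for export into bile or blood. Ugt enzymes sit in the endoplasmic reticulum and mostly transfer glucuronic acid from UDP-glucuronic acid, Sult enzymes transfer sulfate from phosphoadenosine phosphosulfate (PAPS), and Gst enzymes join glutathione to electrophiles such as lipid aldehydes and epoxides. Hepatocytes carry most of this capacity, and cholestasis exposes them to the bilirubin and bile acids that the same enzymes handle.

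Levels are given as FPKM, fragments scaled to transcript length and library size, as the authors deposited them, in the order of libraries 1 to 3 of each group. A change is a difference of log2(FPKM + 1) ± SE from limma, and it understates the change of genes near 1 FPKM. A gene counts as having risen or fallen when its adjusted p (Benjamini and Hochberg over the 10142 genes tested) was under 0.05. Whole fragments could be recovered from the values and summed to 34815965 to 40780517 per library. The liver label was checked on hepatocyte genes: the 6 hepatocyte markers together reached 51198 to 59999 FPKM in sham. They reached 30429 to 37132 FPKM in BDL and 36543 to 44563 in BDL+LIG, and 1 of the 6 fell after ligation. Over the same groups the summed markers of cholangiocytes went from 19.3 to 35.4 FPKM in sham to 403 to 597 in BDL and 210 to 451 in BDL+LIG. Those of macrophages went from 73.9 to 104 FPKM in sham to 331 to 456 in BDL and 377 to 768 in BDL+LIG. All 5 tested cholangiocyte markers, all 6 macrophage markers, all 3 neutrophil markers and 3 of 6 stellate cell and myofibroblast markers rose from sham to BDL, and 1 of 5 endothelial markers (Cdh5) did. The summed neutrophil markers were 4.03 to 5.29 FPKM in sham, 39.9 to 44.8 in BDL and 14.0 to 37.6 in BDL+LIG. Those of stellate cells and myofibroblasts were 12.9 to 35.3, 60.5 to 72.7 and 87.8 to 173 FPKM in the same order. In bulk liver, fewer cells of a type and less RNA per cell cannot be told apart, and the part of these shifts in the results that follow was not tested.

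After ligation the 3 families changed in different ways, with glucuronosyltransferases of the Ugt2 and Ugt3 groups lower, a few sulfotransferases sharply higher or lower, and Gst genes moving in both directions. Of the 41 members that passed the filter on low values, 25 changed between BDL and sham (61%), 10 of them higher and 15 lower, beside 29.7% of all tested genes (22.9% higher and 6.76% lower). Among 15 tested Ugt genes 7 fell, 0 rose and 8 did not pass. All 6 tested Sult genes passed, 3 higher and 3 lower. Of 20 tested Gst genes 7 rose, 5 fell and 8 did not pass. The median log2 change was -0.43 for Ugt, 0.30 for Sult and -0.01 for Gst, beside 0.16 for all tested genes. The libraries of the groups did not overlap for 28 of the 41 members, beside 45% of all tested genes.

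**Figure D1:**
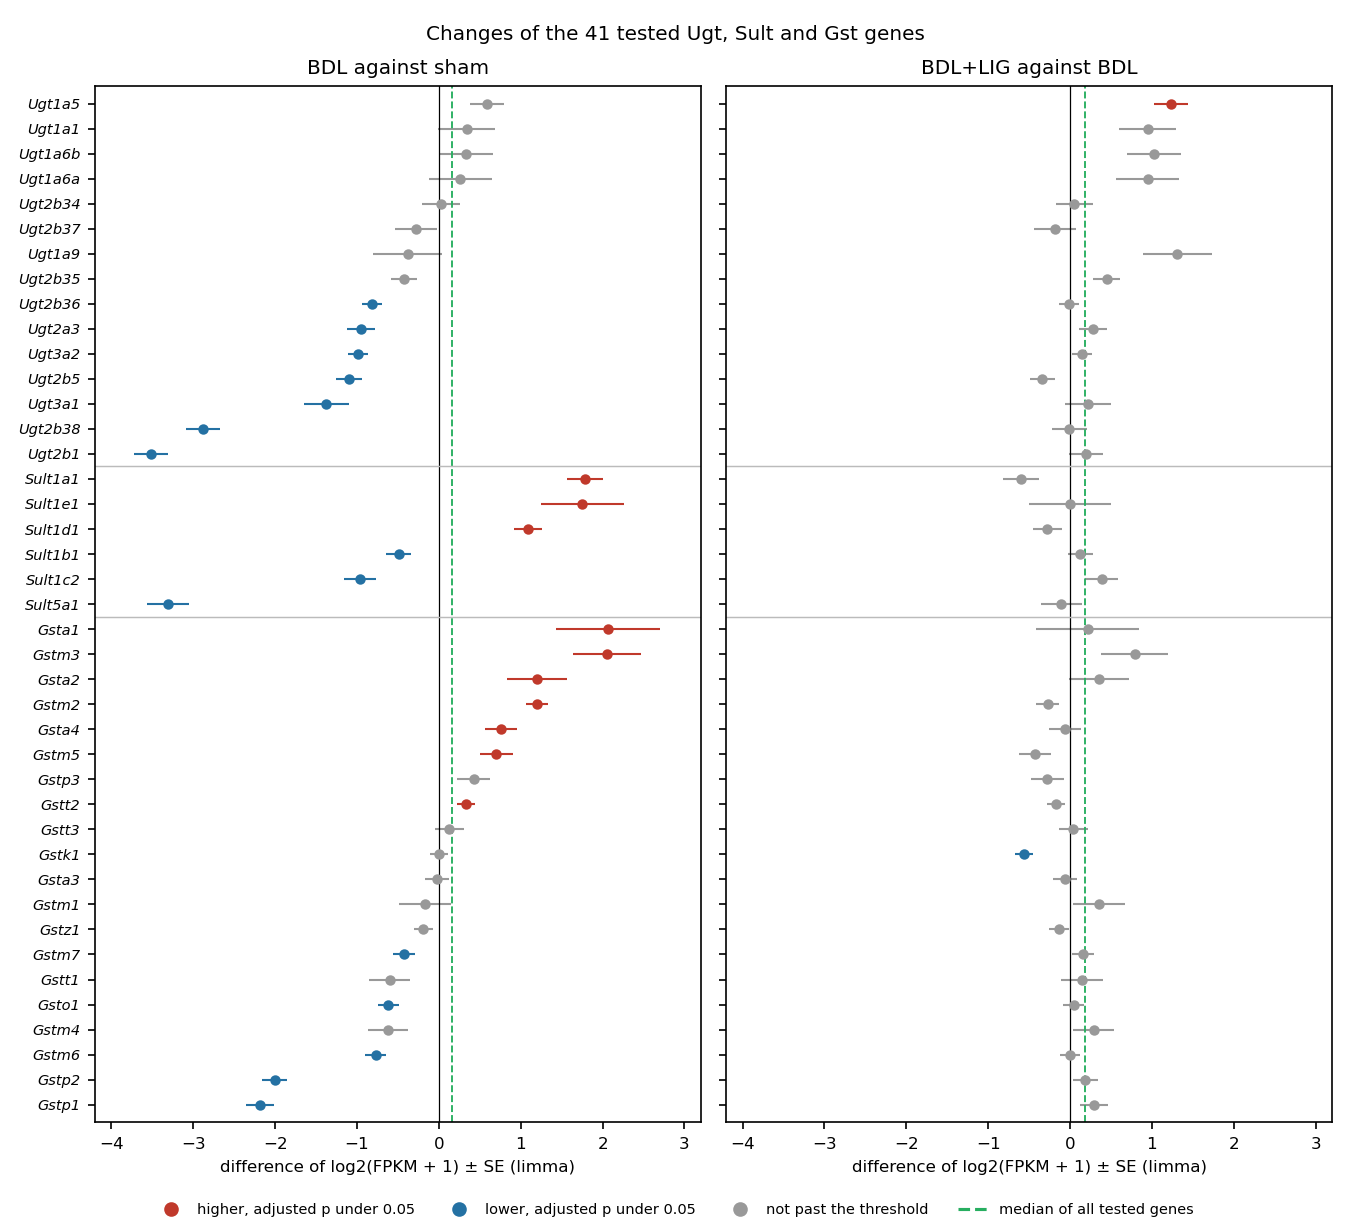
Difference of log2(FPKM + 1) ± SE (limma) for each of the 41 tested members, ordered within Ugt, Sult and Gst, for BDL against sham (left) and BDL+LIG against BDL (right). Red points rose and blue points fell at an adjusted p under 0.05, grey points did not pass, and the dashed line is the median of all tested genes. On the left 25 points are coloured, from -3.52 for Ugt2b1 to 2.07 for Gsta1, and on the right 2 are, Ugt1a5 and Gstk1.

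The split between higher and lower calls depended on how libraries were scaled, and most for Gst. With median-of-ratios scaling 3 Gst genes rose and 7 fell, with quantile normalization 5 rose and 6 fell, and rescaled to TPM 7 rose and 4 fell. Ugt stayed at 0 rises with 8, 8 and 7 falls under the same scalings. Over all tested genes the split moved from 2322 higher and 686 lower to 1462 and 1466 with median-of-ratios scaling, 1510 and 1402 with quantile normalization and 2707 and 554 with TPM. The median of all genes moved with it, from 0.16 to -0.06, -0.03 and 0.25.

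The most abundant glucuronosyltransferases of sham liver fell after ligation. They belong to the Ugt2b subfamily, whose enzymes act on steroids, bile acids and many drugs. Ugt2b5, the highest Ugt gene over the 9 libraries, stood at 541, 477 and 444 FPKM in the sham libraries, at 229, 231 and 221 in those of BDL and at 188, 214 and 143 in those of BDL+LIG. Its sham libraries were all higher than the 6 ligated ones, and it fell (log2 -1.10 ± 0.16, adjusted p = 0.000561). Ugt2b36 stood at 392.3, 369 and 337 FPKM in the sham libraries, at 202, 214 and 206 in those of BDL and at 184, 229.6 and 204 in those of BDL+LIG, a fall with no overlap (log2 -0.81 ± 0.12, adjusted p = 0.00081). The fall was steepest in Ugt2b1, at 324, 269 and 262 FPKM in the sham libraries, at 26.5, 24.1 and 21.1 in those of BDL and at 19.2, 37.2 and 28.9 in those of BDL+LIG. Every ligated library of Ugt2b1 lay far below every sham library (log2 -3.52 ± 0.21, adjusted p = 2.75e-06). In sham Ugt2b1 held 17.8% of the summed Ugt level and ranked 3 in the family, and in BDL it held 3.11% and ranked 8. Ugt2b38, at a lower level, stood at 15.5, 11.1 and 15.6 FPKM in the sham libraries, at 1.33, 0.791 and 0.985 in those of BDL and at 0.501, 1.51 and 1.16 in those of BDL+LIG and also fell steeply (log2 -2.88 ± 0.21, adjusted p = 8.4e-06). Ugt2b38 shared 37.4% and Ugt2b5 41.7% of the 50-base stretches of its transcript with other genes, 34.1% and 34.8% with each other. Their separate levels are thus uncertain.

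The remaining members of the group were more mixed. Ugt2a3, which shares the Ugt2 cluster with the Ugt2b genes, stood at 102, 89.6 and 71.0 FPKM in the sham libraries, at 46.5, 44.4 and 42.1 in those of BDL and at 43.0, 66.4 and 54.9 in those of BDL+LIG (log2 -0.95 ± 0.17, adjusted p = 0.00252), with no overlap between sham and BDL. Ugt2b34 did not pass, at 141, 96.2 and 76.2 FPKM in the sham libraries, at 101, 107 and 101 in those of BDL and at 93.9, 143 and 91.0 in those of BDL+LIG, and its sham libraries lay on both sides of the BDL ones. For Ugt2b35 every BDL library was below every sham library, at 36.0, 38.7 and 38.6 against 61.6, 51.6 and 41.7 FPKM, but the change did not pass (adjusted p = 0.0716). Ugt2b37 was low in all groups, between 0.625 and 3.39 FPKM, and did not pass (adjusted p = 0.449). Of the 8 Ugt2 genes, 5 fell and 3 did not pass, and their summed level went from 1580.0, 1365 and 1251 FPKM in sham down to 644, 661 and 632 in BDL.

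Both Ugt3a genes fell as well. The UGT3A enzymes are known for using other UDP-sugars than UDP-glucuronic acid. Ugt3a2 stood at 128, 161 and 156 FPKM in the sham libraries, at 73.1, 73.6 and 75.2 in those of BDL and at 75.3, 83.2 and 87.9 in those of BDL+LIG (log2 -0.99 ± 0.12, adjusted p = 0.000204). Ugt3a1, at a much lower level, stood at 16.3, 11.8 and 11.2 FPKM in the sham libraries, at 4.68, 3.56 and 5.00 in those of BDL and at 3.05, 8.78 and 5.22 in those of BDL+LIG (log2 -1.37 ± 0.28, adjusted p = 0.00456). In both genes the 3 sham libraries were above the 3 BDL libraries. The 7 Ugt falls, Ugt2a3, Ugt2b1, Ugt2b5, Ugt2b36, Ugt2b38, Ugt3a1 and Ugt3a2, kept their call under all alternatives of scaling, filter, pseudocount and model and with any 1 library left out, and 4 of them also changed by at least 1 on the log2 scale.

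**Figure D2:**
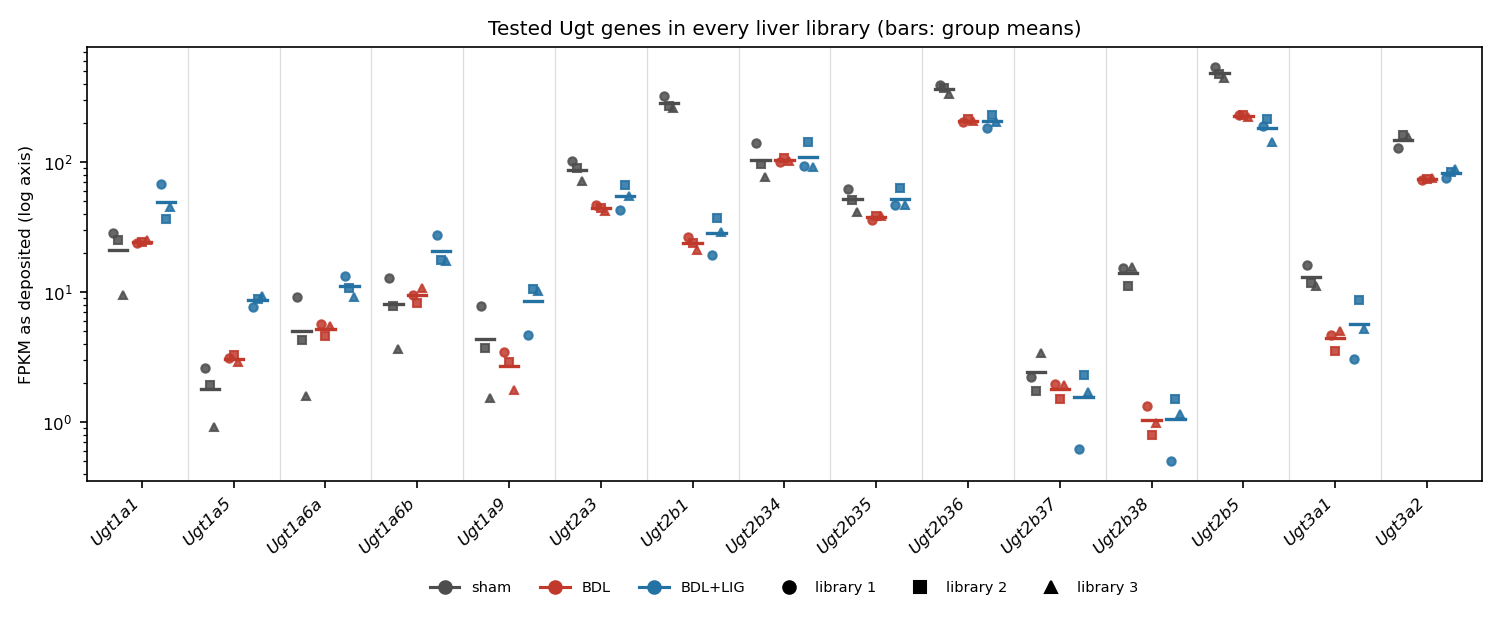
FPKM of the 15 tested Ugt genes in every library on a log axis, with symbols for libraries 1 to 3, colours for the groups and bars at the group means. The Ugt2b1, Ugt2b5, Ugt2b36 and Ugt2b38 points of sham sit above all ligated points. The means of the 5 Ugt1a genes are highest in BDL+LIG, though for Ugt1a9 the sham and BDL+LIG points overlap.

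The Ugt1a genes, which include the bilirubin glucuronosyltransferase Ugt1a1, did not fall. They are read from alternative first exons joined to the same later exons, so most of their messages begin differently and all end alike. The openings of 3 tested members show the difference, as the first 60 coding bases of the longest open reading frame in GENCODE vM21 transcripts. Not every opening is unique, since that of Ugt1a6b, not printed, occurs in 3 of the 8 members.
Ugt1a1: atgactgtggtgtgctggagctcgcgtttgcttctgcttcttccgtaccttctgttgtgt
Ugt1a5: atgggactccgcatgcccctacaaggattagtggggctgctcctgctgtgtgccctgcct
Ugt1a9: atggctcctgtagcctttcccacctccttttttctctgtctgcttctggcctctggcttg
A run of 60 bases from the common part, in capitals as it is the same in all 8 Ugt1a members, begins at coding base 869 of 1608 in Ugt1a1.
Ugt1a, common part: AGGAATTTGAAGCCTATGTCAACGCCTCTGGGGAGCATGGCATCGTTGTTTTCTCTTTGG
Between 62% and 100% of the 50-base stretches of an Ugt1a transcript occur in another gene, and all those of Ugt1a6a do. The sources used here do not give how the authors' counting divided such fragments, so the levels of single Ugt1a genes are uncertain.

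Ugt1a1 stood at 28.8, 25.2 and 9.47 FPKM in the sham libraries, at 23.7, 24.3 and 25.3 in those of BDL and at 67.7, 36.8 and 44.9 in those of BDL+LIG. Its BDL libraries lay within the range of sham, and the change did not pass (log2 0.34 ± 0.35, adjusted p = 0.504). Ugt1a6a and Ugt1a6b, which conjugate planar phenols, stood at 9.15, 4.31 and 1.596 and at 13.0, 7.77 and 3.69 FPKM in sham, and at 5.65, 4.63 and 5.45 and 9.49, 8.21 and 10.8 in BDL. Neither passed (adjusted p = 0.648 and 0.492), nor did Ugt1a9 at 7.87, 3.75 and 1.54 FPKM in sham against 3.48, 2.92 and 1.76 in BDL (adjusted p = 0.532). In all of these, sham library 1 was highest and sham library 3 lowest within its group, and the sham spread was far wider than that of BDL. For Ugt1a5 every BDL library was above every sham library, at 3.10, 3.28 and 2.88 against 2.60, 1.93 and 0.920 FPKM, and the change narrowly missed the threshold (log2 0.58 ± 0.21, adjusted p = 0.0559). Without sham library 1, Ugt1a5 rose (log2 0.78, adjusted p = 0.00588) and so did Ugt1a6a (log2 0.75, adjusted p = 0.0433). Without sham library 3 the sign of Ugt1a1, Ugt1a6a and Ugt1a6b turned (log2 -0.13, -0.24 and -0.08), and without sham library 1 that of Ugt1a9 did (log2 0.07). The untested Ugt1a10, Ugt1a2 and Ugt1a7c did not exceed 0.398 FPKM in any library.

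Among the sulfotransferases, the phenol enzyme Sult1a1 and Sult1d1, which acts on catecholamines in the mouse, carried most of the family's level and both rose after ligation. Sult1a1 stood at 67.6, 66.9 and 42.4 FPKM in the sham libraries, at 189.9, 200.5 and 216 in those of BDL and at 174, 101 and 132 in those of BDL+LIG. Each BDL library was above each sham library (log2 1.79 ± 0.22, adjusted p = 0.000219). Sult1d1 stood at 26.7, 39.6 and 27.2 FPKM in the sham libraries, at 68.3, 66.1 and 64.5 in those of BDL and at 61.8, 43.8 and 59.9 in those of BDL+LIG, again with no overlap between sham and BDL (log2 1.09 ± 0.17, adjusted p = 0.00124). The summed level of the 14 Sult genes went from 117, 135 and 100.4 FPKM in sham to 268, 277 and 292 in BDL. Sult1a1 made up 50.2% of it in sham and 72.5% in BDL. The gene length implied by the FPKM of Sult1a1 was 4271 bases, against 1370 in its longest protein-coding transcript. For Sult5a1 these were 1584 and 3805, so shares and ranks among Sult genes are uncertain.

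Sult1e1, the estrogen sulfotransferase, was near absent in sham and present after ligation. It stood at 0.393, 0.0897 and 0 FPKM in the sham libraries, at 2.26, 3.32 and 3.14 in those of BDL and at 10.1, 1.09 and 1.501 in those of BDL+LIG, which rest on 18, 4 and 0 recovered fragments (sham), 116, 170 and 138 (BDL) and 510, 54 and 75 (BDL+LIG). It rose from sham to BDL (log2 1.75 ± 0.50, adjusted p = 0.0241), but the call was lost without sham library 2 or 3 or without BDL library 2 or 3 (log2 1.65 to 1.72, adjusted p from 0.0685 to 0.0776). It was also lost with quantile normalization (log2 1.54, adjusted p = 0.06) and with no filter on low values (adjusted p = 0.0939). BDL+LIG library 1 stood far above the other BDL+LIG libraries.

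The other 3 tested Sult genes fell. Sult5a1, an enzyme without a settled substrate, stood at 11.3, 15.1 and 21.0 FPKM in the sham libraries, at 0.867, 0.590 and 0.508 in those of BDL and at 0.600, 1.06 and 0.0956 in those of BDL+LIG. It was the third most abundant Sult gene of sham liver at 13.4% of the family's level and the sixth in BDL at 0.235% (log2 -3.31 ± 0.26, adjusted p = 1.12e-05). Sult1c2 stood at 2.89, 2.72 and 2.09 FPKM in the sham libraries, at 0.903, 0.839 and 0.725 in those of BDL and at 0.801, 2.22 and 1.33 in those of BDL+LIG (log2 -0.96 ± 0.20, adjusted p = 0.00464). Sult1b1, known for sulfating thyroid hormones, stood at 7.11, 10.1 and 6.65 FPKM in the sham libraries, at 5.05, 5.01 and 5.83 in those of BDL and at 5.43, 6.23 and 5.94 in those of BDL+LIG (log2 -0.49 ± 0.15, adjusted p = 0.0365). In each of these every BDL library was below every sham library. The Sult1b1 call was lost without sham library 2 or without BDL library 1, 2 or 3 or without BDL+LIG library 3 (log2 -0.55 to -0.33, adjusted p from 0.0561 to 0.126). It was also lost rescaled to TPM, with the 2 groups alone and with no filter (log2 -0.49 to -0.44, adjusted p = 0.09, 0.0706 and 0.068). Sult5a1, Sult1c2, Sult1a1 and Sult1d1 kept their calls under all such alternatives that tested them.

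The 8 untested Sult genes did not exceed 1.12 FPKM in any library. Sult2a7, of the subfamily that sulfates steroids and bile acids, was the highest of them at 0.425, 0.871 and 1.12 FPKM in the sham libraries, at 0.111, 0.0446 and 0.365 in those of BDL and at 0, 0 and 0.0229 in those of BDL+LIG. Its recovered fragments numbered 17, 34 and 43 (sham), 5, 2 and 14 (BDL) and 0, 0 and 1 (BDL+LIG), and it was not tested. Sult2b1, the cholesterol sulfotransferase, had a listed value of 0 in every sham library, against 0.406, 0.372 and 0.285 FPKM in BDL libraries and 0.272, 0.144 and 0.287 in BDL+LIG libraries. With no filter on low values, Sult2a7 fell (log2 -0.61 ± 0.15, adjusted p = 0.0358) and Sult2b1 rose (log2 0.44 ± 0.05, adjusted p = 0.00181), and they were 2 of the 12 members left out by the filter, beside 13% of all 21470 genes in that fit. Sult2a1 was listed at 0 in every library except BDL library 1, at 0.0240 FPKM.

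**Figure D3:**
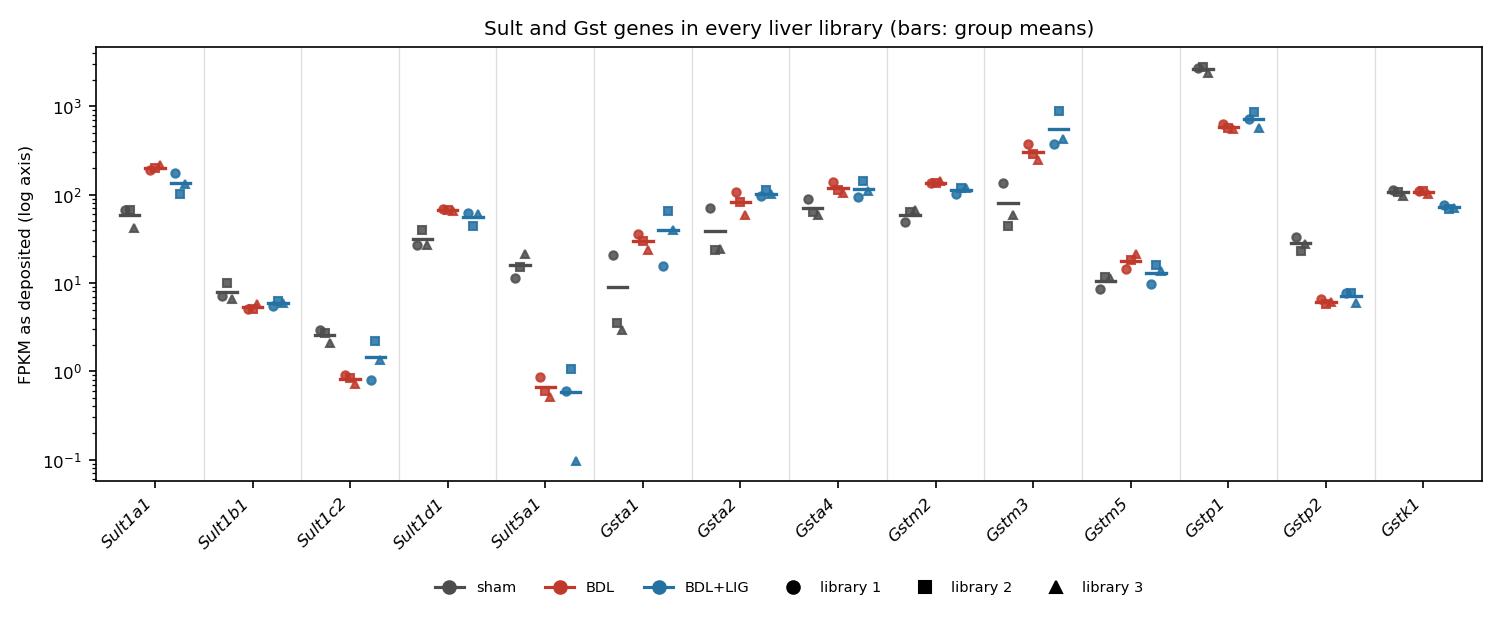
FPKM of 14 Sult and Gst genes in every library on a log axis, with symbols for libraries 1 to 3, colours for the groups and bars at the group means. Sult1a1, Sult1d1, Gstm2 and Gstm3 are higher and Sult5a1, Gstp1 and Gstp2 lower in all BDL libraries than in all sham libraries, and Gstk1 is lowest in BDL+LIG.

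Among the glutathione S-transferases 2 of 3 pi class genes fell, further than any other Gst gene. Gstp1, by its mean the highest Gst gene of sham liver, stood at 2683, 2805 and 2407 FPKM in the sham libraries, at 624, 563 and 546 in those of BDL and at 722, 857 and 567 in those of BDL+LIG. Its ligated libraries all lay far below the sham ones (log2 -2.18 ± 0.17, adjusted p = 1.16e-05), and its part of the summed Gst level was 38.3% in sham and 12.6% in BDL. Gstp2, its neighbour, stood at 33.5, 22.9 and 27.5 FPKM in the sham libraries, at 6.55, 5.82 and 6.07 in those of BDL and at 7.77, 7.76 and 6.00 in those of BDL+LIG and also fell (log2 -2.01 ± 0.15, adjusted p = 1.12e-05). The third gene of the class, Gstp3, stood at 15.2, 13.4 and 17.2 FPKM in the sham libraries, at 19.96, 23.3 and 19.0 in those of BDL and at 11.7, 21.5 and 19.1 in those of BDL+LIG. Its BDL libraries were all above its sham libraries, and the difference did not pass (adjusted p = 0.137). Gstp1 and Gstp2 shared 62.3% and 64.3% of their 50-base stretches with each other, so how fragments were divided between them is uncertain. Gstp3 shared none.

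The promoters of the 3 pi class genes are printed below. Those of Gstp1 and Gstp2 are nearly alike and that of Gstp3 differs, and whether this has a part in their levels was not tested. They are the 150 bases before the transcript start in RefSeq on GRCm38.p6, written 5′ to 3′ along the gene, and capitals mark TGAGTCA, the AP-1 element. This build is earlier than the GRCm39 named for the table, and the coordinates are those of GRCm38.p6.
Gstp1, chr19:4037913-4038062, minus strand: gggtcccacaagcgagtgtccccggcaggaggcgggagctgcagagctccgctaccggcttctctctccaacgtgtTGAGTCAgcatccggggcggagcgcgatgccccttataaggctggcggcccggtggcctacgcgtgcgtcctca
Gstp2, chr19:4042222-4042371, minus strand: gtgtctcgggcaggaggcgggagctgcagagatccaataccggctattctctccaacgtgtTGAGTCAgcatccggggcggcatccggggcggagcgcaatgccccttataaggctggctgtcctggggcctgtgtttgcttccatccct
Gstp3, chr19:4059448-4059597, minus strand: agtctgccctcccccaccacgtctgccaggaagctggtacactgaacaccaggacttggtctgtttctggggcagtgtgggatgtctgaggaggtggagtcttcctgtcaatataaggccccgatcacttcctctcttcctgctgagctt
The AP-1 letters began 74 bases before the start in Gstp1 and 89 before it in Gstp2 and were not in the window of Gstp3. A promoter was found in the RefSeq table for 45 of the 53 members (16 Ugt, 10 Sult and 19 Gst). Searched on both strands of windows of 300 bases around the start, the letters were found in 6 of the 45 (also Gstm5, Sult1b1, Sult2b1 and Ugt2b37), beside 5.95% of 27025 genes. These 6 include the risen Gstm5 and the fallen Gstp1, Gstp2 and Sult1b1. The core of the antioxidant response element, searched as TGACNNNGC, was in 3 members (Gsta3, Gstm5 and Gstm7), beside 14% of genes. This pattern needs a C after TGA, so it could not match the TGAGTCAgc printed for Gstp1 and Gstp2. Elements of that kind with a G there were not searched for. Both motifs were chosen after the sequences had been seen, and a match of letters does not show a bound site.

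In the alpha class 3 of 4 genes rose. Gsta1 and Gsta2, the inducible alpha enzymes, varied widely within sham. Gsta1 stood at 20.6, 3.51 and 2.93 FPKM in the sham libraries, at 36.1, 29.8 and 23.6 in those of BDL and at 15.4, 64.9 and 39.9 in those of BDL+LIG (log2 2.07 ± 0.63, adjusted p = 0.0315). Gsta2 stood at 70.1, 23.5 and 24.0 FPKM in the sham libraries, at 106, 81.6 and 58.4 in those of BDL and at 95.4, 112 and 101 in those of BDL+LIG (log2 1.20 ± 0.37, adjusted p = 0.0318). In both, sham library 1 was far above the other sham libraries, and for Gsta2 it exceeded BDL library 3, so the groups overlapped. Gsta4, which detoxifies the lipid aldehyde hydroxynonenal, stood at 88.2, 64.2 and 58.8 FPKM in the sham libraries, at 141, 112 and 104 in those of BDL and at 93.4, 144 and 109 in those of BDL+LIG and rose with no overlap between sham and BDL (log2 0.76 ± 0.20, adjusted p = 0.016). Gsta3, the most abundant alpha gene, stood at 752, 699.9 and 557 FPKM in the sham libraries, at 702, 659 and 609.7 in those of BDL and at 678, 603 and 610.2 in those of BDL+LIG, and its change did not pass (adjusted p = 0.938). The call of Gsta1 was lost without sham library 2 or 3 or without BDL library 1, 2 or 3 (log2 1.62 to 2.22, adjusted p from 0.0647 to 0.112). That of Gsta2 was lost without sham library 2 or 3 or without BDL library 1 or 2 (log2 0.94 to 1.18, adjusted p from 0.0882 to 0.117), and that of Gsta4 without sham library 2 or 3 or without BDL library 1 (log2 0.64 to 0.71, adjusted p from 0.0516 to 0.0661). With median-of-ratios scaling the calls of Gsta4 (log2 0.47, adjusted p = 0.0792) and Gsta2 (log2 0.92, adjusted p = 0.057) were lost, and with no filter those of all 3 were (adjusted p = 0.113, 0.108 and 0.0527 for Gsta1, Gsta2 and Gsta4). Gsta2 was also lost with the 2 groups alone (adjusted p = 0.0701). Gsta1 shared 89.7% and Gsta2 64.2% of its 50-base stretches with other genes, so their separate levels are uncertain.

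The mu class split by member. Gstm3 rose most, at 136, 44.5 and 59.2 FPKM in the sham libraries, at 376, 290.2 and 244 in those of BDL and at 371, 877 and 426 in those of BDL+LIG (log2 2.05 ± 0.41, adjusted p = 0.00418). Its BDL libraries did not overlap sham, and it went from rank 8 of the family in sham to rank 4 in BDL. Gstm2 stood at 48.6, 63.6 and 66.3 FPKM in the sham libraries, at 134, 136 and 141 in those of BDL and at 101, 120.2 and 119 in those of BDL+LIG (log2 1.20 ± 0.14, adjusted p = 0.000137), and its BDL libraries lay close together above sham. Gstm5 stood at 8.58, 11.6 and 11.4 FPKM in the sham libraries, at 14.4, 17.99 and 21.2 in those of BDL and at 9.73, 16.0 and 13.6 in those of BDL+LIG (log2 0.70 ± 0.20, adjusted p = 0.0229), a rise lost without BDL library 2 or 3 (log2 0.58 to 0.69, adjusted p from 0.0753 to 0.103), with median-of-ratios scaling (log2 0.43, adjusted p = 0.167), with quantile normalization (log2 0.55, adjusted p = 0.06) and with no filter (adjusted p = 0.0669). Gstm6 fell, at 69.8, 62.9 and 78.8 FPKM in the sham libraries, at 41.1, 43.5 and 37.7 in those of BDL and at 36.1, 43.8 and 42.5 in those of BDL+LIG (log2 -0.77 ± 0.13, adjusted p = 0.0013). Gstm7 stood at 38.8, 33.5 and 28.8 FPKM in sham against 27.2, 24.0 and 22.8 in BDL (log2 -0.43 ± 0.13, adjusted p = 0.0346), a fall lost without sham library 1 or 2 or without BDL library 2 or 3 (log2 -0.43 to -0.32, adjusted p from 0.0529 to 0.137), rescaled to TPM (log2 -0.35, adjusted p = 0.14), with the 2 groups alone (adjusted p = 0.0572) and with no filter (adjusted p = 0.0575). Gstm1, the highest Gst gene over the 9 libraries, stood at 3965, 1468 and 1921 FPKM in the sham libraries, at 2388, 1954 and 1687 in those of BDL and at 2285, 2759 and 2582 in those of BDL+LIG. Its sham library 1 was the highest of all 9 and its change did not pass (adjusted p = 0.729). Gstm4 did not pass either (adjusted p = 0.0862), although each of its BDL libraries was below each sham library. Gstm3 shared 28.8% and Gstm1 23.1% of its 50-base stretches with other genes, so their separate levels are uncertain.

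Of the smaller Gst classes, the omega gene Gsto1, which also reduces dehydroascorbate, fell without overlap, at 96.6, 108 and 124 FPKM in sham against 70.7, 71.4 and 70.3 in BDL (log2 -0.62 ± 0.13, adjusted p = 0.00504). The theta gene Gstt2 rose slightly, at 32.2, 35.5 and 36.8 FPKM in sham against 41.8, 44.0 and 46.3 in BDL (log2 0.33 ± 0.11, adjusted p = 0.044). That call was lost without sham library 1 or 2 or without BDL library 1, 2 or 3 or without BDL+LIG library 1 or 3 (log2 0.28 to 0.37, adjusted p from 0.0522 to 0.166). It was also lost with median-of-ratios scaling (log2 0.05, adjusted p = 0.863), quantile normalization (log2 0.24, adjusted p = 0.121), the 2 groups alone (adjusted p = 0.0562) and voom (adjusted p = 0.0513). Gstt1 and Gstt3 did not pass (adjusted p = 0.101 and 0.619). Gstz1, an isomerase of tyrosine breakdown, and Gstk1, of mitochondria and peroxisomes, did not pass either (adjusted p = 0.267 and 0.988). Gsto2 did not exceed 0.0792 FPKM and was not tested.

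Summed over a class, the alpha genes reached 931, 791 and 643 FPKM in sham against 986, 883 and 796 in BDL, which overlap. The mu genes reached 4298, 1702 and 2190.0 FPKM in sham against 2996, 2481 and 2168 in BDL, with sham library 1 highest. The pi genes reached 2732, 2841 and 2451 FPKM in sham against 650.2, 592 and 572 in BDL, with no overlap. Gst transcripts together took 0.949% to 1.59% of all FPKM in sham and 0.739% to 0.931% in BDL. Ugt transcripts took 0.227% to 0.331% in sham and 0.138% to 0.142% in BDL.

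**Figure D4:**
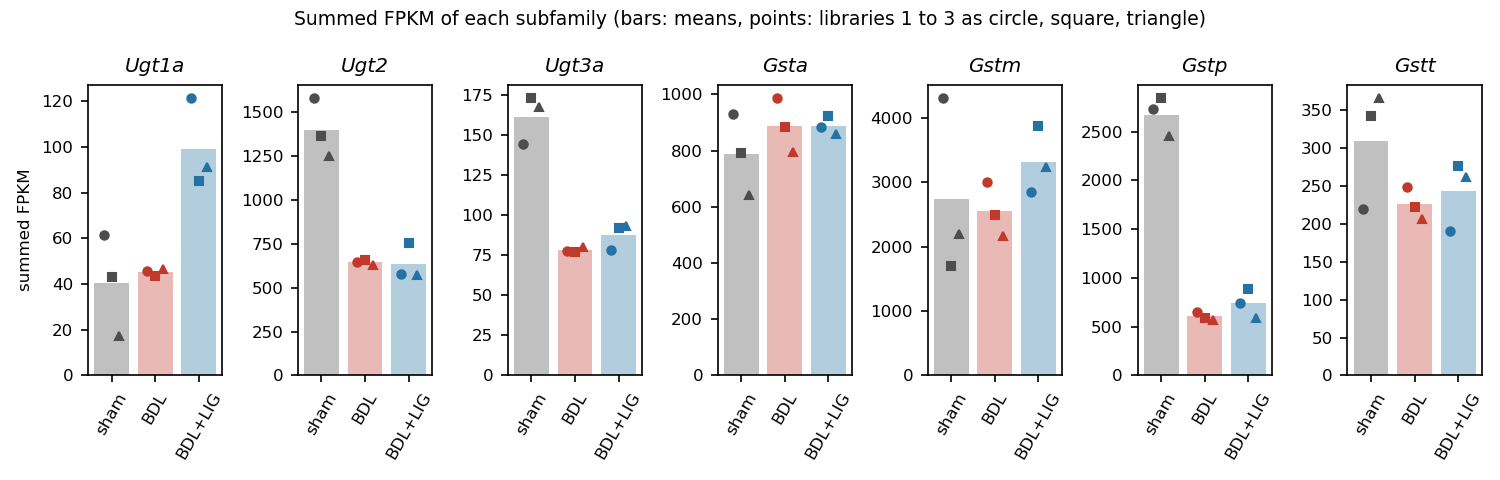
Summed FPKM of 7 Ugt and Gst subfamilies in each library (circle, square and triangle for libraries 1 to 3), with bars from 0 to the group mean. Ugt2, Ugt3a and Gstp are lower in every ligated library than in every sham library, and Ugt1a is highest in the BDL+LIG libraries, from 85.2 to 121 FPKM.

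Adding LIG to ligation changed few of these genes past the threshold. Between BDL+LIG and BDL, 2 of the 41 tested members changed (4.88%), beside 11.8% of all tested genes (9.98% higher and 1.79% lower). Ugt1a5 rose and Gstk1 fell, in limma and also with voom on the recovered fragments. Of the 6 tested Sult genes 0 passed in limma or voom, and 1 had an unadjusted p under 0.05 in each. The medians were 0.22 for Ugt, -0.05 for Sult and 0.04 for Gst, beside 0.18 for all tested genes. The libraries of the groups did not overlap for 13 members, 8 of them Ugt, 2 Sult and 3 Gst, beside 51.2% of all tested genes. With the 2 compared groups alone in the fit 8 members were called (19.5%), beside 33.8% of all tested genes. With BDL library 1, 2 or 3 left out limma called 0, with 6 or 7 members at an unadjusted p under 0.05, and of all genes it called 40, 0 and 54. Over the whole table, the split of 1012 higher and 182 lower turned to 275 and 355 with median-of-ratios scaling and to 575 and 531 with quantile normalization, and to 1957 and 99 with TPM.

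All 5 tested Ugt1a genes had each BDL+LIG library above each BDL library. Ugt1a5 stood at 3.10, 3.28 and 2.88 FPKM in BDL and 7.68, 8.87 and 9.38 in BDL+LIG and rose (log2 1.24 ± 0.21, adjusted p = 0.0128). Ugt1a1 stood at 23.7, 24.3 and 25.3 FPKM in BDL and 67.7, 36.8 and 44.9 in BDL+LIG and did not pass (log2 0.95 ± 0.35, adjusted p = 0.0932). The other 3 did not pass either. Ugt1a6a stood at 13.4, 10.8 and 9.22 FPKM in BDL+LIG (log2 0.95 ± 0.38, adjusted p = 0.119). Ugt1a6b stood at 27.5, 17.6 and 17.3 FPKM (log2 1.03 ± 0.33, adjusted p = 0.0681) and Ugt1a9 at 4.72, 10.6 and 10.2 FPKM (log2 1.31 ± 0.42, adjusted p = 0.0657). These genes share most of their sequence, and their values are not independent. The summed level of the Ugt1a genes was 45.7, 43.5 and 46.6 FPKM in BDL and 121, 85.2 and 91.4 in BDL+LIG, beside 61.4, 43.0 and 17.2 in sham. The call of Ugt1a5 was lost without BDL library 1, 2 or 3 (log2 1.20 to 1.27, adjusted p from 0.0589 to 0.0676). In the same comparison all 5 endothelial markers rose, with a median of 0.93, and their summed level was 25.3 to 28.5 FPKM in BDL and 43.5 to 63.4 in BDL+LIG, beside 19.3 to 22.2 in sham. The macrophage marker Adgre1 (log2 1.41 ± 0.28, adjusted p = 0.0169) and the stellate cell marker Lrat (log2 0.93 ± 0.23, adjusted p = 0.0317) rose, the neutrophil marker S100a9 fell (log2 -1.11 ± 0.29, adjusted p = 0.0389), and the 6 hepatocyte and 5 cholangiocyte markers, with medians of 0.31 and 0.13, did not pass. Without BDL library 2, limma called 0 of all genes, so these marker calls were lost as well. The part of these marker shifts in the Ugt1a values was not tested.

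Some fits called more members, and more of all genes with them. The share of members called was 17.1% without sham library 1, 19.5% without sham library 3 and 19.5% with only the BDL and BDL+LIG libraries, beside 31%, 17.2% and 33.8% of all tested genes. With sham library 1 left out, Ugt1a1, Ugt1a6a, Ugt1a6b and Ugt1a9 passed at adjusted p = 0.0427, 0.0166, 0.0134 and 0.0151. With sham library 3 left out they passed at adjusted p = 0.0172, 0.0268, 0.0197 and 0.0296, and with only the BDL and BDL+LIG libraries at adjusted p = 0.0104, 0.00453, 0.00701 and 0.0132. Their log2 changes in these fits were the ones given, since no BDL or BDL+LIG library was left out.

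Gstk1 stood at 114, 108 and 97.5 FPKM in the sham libraries, at 109, 111 and 100.3 in those of BDL and at 77.2, 69.3 and 70.2 in those of BDL+LIG. Its sham and BDL libraries overlapped and all lay above the BDL+LIG ones (log2 -0.56 ± 0.11, adjusted p = 0.0166). The call was lost without BDL library 1, 2 or 3 or without BDL+LIG library 2 or 3 (log2 -0.60 to -0.53, adjusted p from 0.0531 to 0.0918), and rescaled to TPM (log2 -0.41, adjusted p = 0.0541). Sult1a1, risen after ligation, had each BDL+LIG library below each BDL library and did not pass (log2 -0.60 ± 0.22, adjusted p = 0.0914). It passed without sham library 3 (log2 -0.60, adjusted p = 0.045) and with the 2 groups alone (adjusted p = 0.0358). Sult1d1 likewise lay lower in all BDL+LIG libraries and did not pass (log2 -0.28 ± 0.17, adjusted p = 0.294), and the same holds for Ugt2b5 (log2 -0.34 ± 0.16, adjusted p = 0.165). Ugt2b35 lay higher in all BDL+LIG libraries and did not pass (log2 0.45 ± 0.16, adjusted p = 0.0889), but passed without sham library 1 or 3 (log2 0.45, adjusted p = 0.0315 and 0.0489). For Sult1e1 the change was near 0 with BDL+LIG library 1 in the fit and -0.76 (adjusted p = 0.0494) without it.

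Set against sham, the BDL+LIG livers had lower Ugt2 and Gstp levels and higher Ugt1a levels. This comparison shares its libraries with the others, so its values are given beside them and not as further support. Of 41 tested members 27 changed (65.9%), 12 higher and 15 lower, beside 52.6% of all tested genes (43.7% higher and 8.92% lower). Ugt had 4 rises and 7 falls, Sult 3 rises and 2 falls, and Gst 5 rises and 6 falls. The groups did not overlap for 27 members, beside 55.4% of all tested genes. The medians were -0.47 for Ugt, 0.22 for Sult and 0.04 for Gst, beside 0.34 for all tested genes. With median-of-ratios scaling Ugt had 2 rises and 9 falls, and Gst had 3 and 10. With TPM, Ugt had 5 rises and 6 falls and Gst 7 and 4. With a log2 change of at least 1 asked for as well, 14 members were called in BDL against sham, 1 in BDL+LIG against BDL and 16 in BDL+LIG against sham, beside 9.38%, 1.07% and 16.8% of all tested genes. Over all tested genes the split of 4430 higher and 905 lower became 2149 and 2771 with median-of-ratios scaling, 2273 and 2247 with quantile normalization and 6292 and 558 with TPM.

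The 4 Ugt rises against sham were Ugt1a5 (log2 1.82 ± 0.21, adjusted p = 7.69e-05), Ugt1a6b (log2 1.36 ± 0.33, adjusted p = 0.0065), Ugt1a1 (log2 1.29 ± 0.35, adjusted p = 0.0104) and Ugt1a6a (log2 1.21 ± 0.38, adjusted p = 0.0219). Ugt1a9 did not pass (log2 0.93 ± 0.42, adjusted p = 0.0856), but passed without sham library 1 or BDL+LIG library 1 (log2 1.26 to 1.38, adjusted p from 0.00682 to 0.0391). The call of Ugt1a6a was lost without sham library 2 or without BDL+LIG library 1 or 2 (log2 1.08 to 1.23, adjusted p from 0.0533 to 0.0713), with median-of-ratios scaling (log2 0.75, adjusted p = 0.0985), with quantile normalization (log2 0.81, adjusted p = 0.0791) and with no filter (adjusted p = 0.072). That of Ugt1a1 was lost with median-of-ratios scaling (log2 0.75, adjusted p = 0.0868). The 7 Ugt falls were those of Ugt2a3, Ugt2b36, Ugt3a1, Ugt3a2, Ugt2b1 (log2 -3.32 ± 0.21, adjusted p = 2.81e-06), Ugt2b38 (log2 -2.89 ± 0.21, adjusted p = 7.17e-06) and Ugt2b5 (log2 -1.43 ± 0.16, adjusted p = 6.15e-05). Of the others, Gstm3 rose (log2 2.84 ± 0.41, adjusted p = 0.000316), with BDL+LIG library 2 at more than any other library, and Gstp1 (log2 -1.90 ± 0.17, adjusted p = 2.04e-05) and Sult5a1 (log2 -3.41 ± 0.26, adjusted p = 8.08e-06) fell. Gstk1 fell against sham too (log2 -0.55 ± 0.11, adjusted p = 0.00191), a call lost rescaled to TPM (log2 -0.32, adjusted p = 0.0574). Gstz1 stood at 172, 163 and 136 FPKM in the sham libraries, at 134, 139 and 138 in those of BDL and at 131, 116 and 129 in those of BDL+LIG, and fell in BDL+LIG against sham (log2 -0.32 ± 0.12, adjusted p = 0.0431). That call was lost under 12 of 19 alternatives, among them TPM (log2 -0.08, adjusted p = 0.629). Median-of-ratios scaling ended the calls of Gstm2 (log2 0.37, adjusted p = 0.163), Sult1d1 (log2 0.26, adjusted p = 0.386) and Gsta4 (log2 0.15, adjusted p = 0.526), and TPM that of Ugt2a3 (log2 -0.44, adjusted p = 0.0719).

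Genes that supply the conjugated groups changed unevenly. Of 15 genes for UDP-glucuronic acid, PAPS and glutathione supply, 3 rose, 3 fell and 9 did not pass between sham and BDL (40% called, beside 29.7% of all tested genes), with a median of 0.22. Ugdh, which makes UDP-glucuronic acid, averaged 80.9 ± 28.2 FPKM in sham (SD, n = 3), 118 ± 11.1 in BDL and 144 ± 16.2 in BDL+LIG, and did not pass in BDL (log2 0.59 ± 0.21, adjusted p = 0.0528). Ugp2, which makes its precursor UDP-glucose, fell (log2 -0.73 ± 0.12, adjusted p = 0.00147). Papss2, a PAPS synthase, did not pass (log2 0.21 ± 0.18, adjusted p = 0.433). Of the subunits of glutamate-cysteine ligase, the limiting step of glutathione synthesis, the catalytic Gclc fell (log2 -0.77 ± 0.24, adjusted p = 0.0377) and the modifier Gclm rose (log2 0.62 ± 0.11, adjusted p = 0.00277). Cth, which yields cysteine, rose (log2 1.14 ± 0.19, adjusted p = 0.00177) while Cbs, the step before it, fell (log2 -1.07 ± 0.17, adjusted p = 0.00109), and Mat1a rose (log2 0.95 ± 0.26, adjusted p = 0.0197). Between BDL+LIG and BDL 0 of the 15 passed in limma or voom, with 2 and 3 at an unadjusted p under 0.05. Of all tested genes 11.8% and 13.5% passed in these fits. The calls of BDL+LIG against sham were 6 rises and 2 falls (53.3%, beside 52.6% of all tested genes), among them Cbs (adjusted p = 0.000786), Cth (adjusted p = 0.00102), Gsr (log2 0.67 ± 0.12, adjusted p = 0.00142), Mat1a (adjusted p = 0.00437), Ugdh (log2 0.87 ± 0.21, adjusted p = 0.00529) and Papss2 (log2 0.62 ± 0.18, adjusted p = 0.0158).

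Of 16 tested conjugating enzymes outside the 3 families, 2 rose, 5 fell and 9 did not pass in BDL (43.8% called, beside 29.7% of all tested genes). The methyltransferase Inmt fell most (log2 -2.49 ± 0.41, adjusted p = 0.00136), followed in p by the microsomal transferase Mgst3, which rose (log2 1.08 ± 0.19, adjusted p = 0.00187), and by the glycine and acyl-CoA genes Glyat (log2 -0.94 ± 0.17, adjusted p = 0.00246) and Acsm1 (log2 -0.53 ± 0.12, adjusted p = 0.01), which fell. With LIG added to ligation, Nnmt fell (log2 -0.77 ± 0.14, adjusted p = 0.014) and Gnmt rose (log2 0.78 ± 0.21, adjusted p = 0.0389). These were 2 of the 16 (12.5%), near the 11.8% of all tested genes. Both calls were lost without BDL library 2, where limma called 0 of all genes. Among 8 tested genes that cleave conjugates or esters, 2 rose and 2 fell in BDL (50% called, beside 29.7% of all tested genes). The carboxylesterases Ces2a (log2 -1.89 ± 0.15, adjusted p = 1.26e-05) and Ces1d (log2 -0.87 ± 0.23, adjusted p = 0.0156) fell. The gamma-glutamyltransferase family member Ggt6 rose (log2 0.90 ± 0.14, adjusted p = 0.00123), as did beta-glucuronidase Gusb (log2 0.67 ± 0.17, adjusted p = 0.0132), which rose again with LIG (log2 0.68 ± 0.17, adjusted p = 0.0321). Of 4 tested exporters 1 rose and 1 fell in BDL (50% called, beside 29.7% of all tested genes). The one that fell was Abcc6 (log2 -1.21 ± 0.28, adjusted p = 0.00897). Abcc3, which carries glucuronides from hepatocytes to blood, averaged 31.3 ± 7.03 FPKM in sham (SD, n = 3), 51.1 ± 1.86 in BDL and 78.4 ± 10.7 in BDL+LIG. It rose after ligation (log2 0.71 ± 0.16, adjusted p = 0.00779) and again with LIG (log2 0.60 ± 0.16, adjusted p = 0.0406). Gusb and Abcc3 were the only LIG calls of their lists (12.5% and 25%, beside 11.8% of all tested genes). Both were lost in the same way without BDL library 2. The canalicular exporter Abcc2 did not pass (adjusted p = 0.965), and its sham libraries ranged from 14.0 to 65.4 FPKM.

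Among 19 tested transcription factors known to act on conjugation genes, 3 rose, 3 fell and 13 did not pass after ligation (31.6% called, near the 29.7% of all tested genes). Ahr rose (log2 1.65 ± 0.20, adjusted p = 0.000234), as did Nfe2l2, which encodes NRF2 (log2 1.36 ± 0.31, adjusted p = 0.00821), and Nr1i2, which encodes the pregnane X receptor PXR (log2 0.63 ± 0.13, adjusted p = 0.00538). Cebpa (log2 -1.10 ± 0.19, adjusted p = 0.00192), Nr1h4, the bile acid receptor FXR (log2 -0.65 ± 0.11, adjusted p = 0.00174), and Ppara (log2 -1.04 ± 0.22, adjusted p = 0.00557) fell. Nr1i3, which encodes the constitutive androstane receptor CAR, did not pass (log2 -0.28 ± 0.32, adjusted p = 0.539). With LIG added, 4 rose and 0 fell in limma (21.1% called, beside 11.8% of all tested genes), Ppara (log2 0.78 ± 0.22, adjusted p = 0.0458), Rxra (log2 0.62 ± 0.11, adjusted p = 0.0131), Arnt (log2 0.73 ± 0.16, adjusted p = 0.0224) and Stat5b (log2 0.56 ± 0.12, adjusted p = 0.0231). Without BDL library 2, limma called 0 of all genes in that comparison, so these 4 calls were lost. Of 15 tested targets of NRF2 outside the 3 families, 9 rose and 3 fell in BDL (80% called, beside 29.7% of all tested genes). Hmox1 (log2 1.84 ± 0.16, adjusted p = 2.11e-05), Pgd (log2 1.33 ± 0.12, adjusted p = 3.64e-05), Nqo1 (log2 1.39 ± 0.18, adjusted p = 0.000297) and Gpx2 (log2 1.88 ± 0.26, adjusted p = 0.000518) had the smallest p, and all 4 rose. The 3 that fell were Osgin1 (log2 -1.04 ± 0.17, adjusted p = 0.00147), Me1 (log2 -0.70 ± 0.22, adjusted p = 0.0372) and Gclc (log2 -0.77 ± 0.24, adjusted p = 0.0377). With LIG 1 target rose, Abcc3 (6.67%, beside 11.8% of all tested genes). Of 10 tested targets of CAR and PXR, 6 rose and 1, Ces2a, fell in BDL (70% called, beside 29.7% of all tested genes). The 3 that did not pass were the cytochrome P450 genes Cyp2b10 (log2 0.08 ± 0.32, adjusted p = 0.882), Cyp3a11 (log2 0.64 ± 0.27, adjusted p = 0.101) and Cyp2c55 (log2 -0.61 ± 0.45, adjusted p = 0.336). The smallest p after Ces2a were those of Gadd45b (log2 1.87 ± 0.22, adjusted p = 0.000181), Por (log2 0.77 ± 0.16, adjusted p = 0.00426) and Aldh1a7 (log2 0.98 ± 0.22, adjusted p = 0.00716), which rose. With LIG 2 rose, Abcc3 and Cyp2b10 (log2 1.14 ± 0.32, adjusted p = 0.0451), and both calls were likewise lost without BDL library 2. The medians of these lists in BDL were -0.13 for the factors, 0.62 for NRF2 targets and 0.68 for CAR and PXR targets, beside 0.16 for all tested genes. Abcc3 and Ces2a are each in more than 1 list, and cofactor supply shares Gclc and Gclm with the NRF2 list.

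Sham library 1 stood apart in some of these genes, about as often as over all tested genes. In 8 of 41 tested members (19.5%) it exceeded both other sham libraries by more than 1.5 times (Gsta1, Gsta2, Gstm1, Gstm3, Sult1e1, Ugt1a6a, Ugt1a6b and Ugt1a9), beside 22.7% of all tested genes, and in Gstt1 it was lower than both by that factor. Nfe2l2 stood at 26.7, 12.3 and 8.204 FPKM in sham, Nr1i3 at 65.7, 29.5 and 27.6, Ugdh at 113, 66.4 and 62.8 and Gclc at 110.5, 48.9 and 57.9, each highest in the same library. Their part in the sham spread of the members was not tested. Without sham library 1 the members called in BDL against sham numbered 26 (63.4%), beside 46% of all tested genes. In the full fit these shares were 61% and 29.7%. Ugt had 7 falls as in the full fit, but 2 rises in place of 0.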

How the data were processed

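RNA of mouse liver was measured in 9 libraries, 3 per group. TRIzol was used to extract total RNA and the VAHTS Universal V6 kit to make libraries, per the labels' protocols. Per the submitters' processing notes, the tools were fastp, HISAT2 (version 2.1.0) and DESeq2, with the build GRCm39. The sources used here name no annotation and no counting program. The authors deposited the values as FPKM in a table that lists 21470 genes. Its columns were tied to samples by title, and 0 columns had no sample.

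Within a library each fragment of a gene adds the same step to its FPKM. Dividing by that step gave whole fragments for 19449 of 19449 genes above 0 in at least 2 libraries (100%, within 0.02 fragments), and in simulated data for 98.2% of 18876 genes. They were used for depth, for voom and for comparing libraries of a group. There the median chi-square per gene ran from 2.61 to 19.5, so none were copies of another. These values cannot show whether the libraries came from different mice.

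Values of log2(FPKM + 1) were tested with limma 3.58.1 (lmFit, then eBayes with a trend; R 4.3.3) in a single fit over the 9 libraries (6 residual degrees of freedom). A gene entered if 3 or more libraries reached 1 FPKM (10142 genes). The Benjamini and Hochberg adjustment ran over these genes within a comparison, with a threshold of 0.05. With 3 libraries on each side, the smallest two-sided p of an exact permutation test is 0.1. On simulated data of BDL against sham (7908 genes), 99% of genes changed by 1 on the log2 scale and 100% of those changed by 2 were recovered, with 9 false calls. The simulation gave every library the same spread and held no outlying library. Real libraries of a group differed unevenly (median chi-square per gene 2.61 to 19.5). The recovered shares thus do not bear on changes in these data that did not pass.

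The members, gene lists and alternatives were chosen with earlier results of these data known. Per-library values are given for members with a group mean of at least 5 FPKM that were called in BDL against sham or BDL+LIG against BDL, the 3 most abundant of each family and a fixed set. Some further members outside that rule are given too, and were chosen after their values were seen. Of the other lists the genes with the 4 smallest p among those called in either of these comparisons were named, with Nfe2l2, Nr1i2, Nr1i3, Ugdh, Papss2, Gclc and Abcc3. Some further genes of these lists are named too, and were chosen after their values were seen. Promoters came from RefSeq (GRCm38.p6) by symbol. One transcription factor of the lists is counted but not reported here by name. Shared sequence was counted in 50-base stretches of the longest protein-coding transcript of each member in GENCODE vM21. A stretch was shared if it occurred, on either strand, in any transcript of another gene there, pseudogenes included. The settings varied were the pseudocount (0.1 and 0.5), the filter (none, or a mean of 5 FPKM or more), the scaling (median-of-ratios, TPM or quantile), a fit of only the 2 groups compared, a block for the replicate number, voom on recovered fragments, a log2 change of at least 1, and each library left out in turn.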

Additional observations from a re-analysis of the deposited data

How the results depend on the processing

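Of the 25 members called in BDL against sham, 17 kept their call under up to 19 alternatives (all but the limit on the log2 change) and 8 lost it under at least 1, and 0 turned sign. In BDL+LIG against BDL 0 of 2 kept it throughout, and in BDL+LIG against sham 16 of 27 did. With any 1 library left out, the members called ranged from 18 to 26, 0 to 8 and 23 to 29 in the 3 comparisons, and all genes called from 1894 to 4668, 0 to 3144 and 4505 to 6922. For BDL+LIG against BDL the 0 genes came without BDL library 2 (limma, 2317 at an unadjusted p under 0.05), and 40 and 54 came without BDL libraries 1 and 3, while 3144 came without sham library 1. For BDL against sham 4668 came without sham library 1.

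The replicate number as a block called 25, 2 and 26 members and, in BDL+LIG against BDL, 742 of all genes in place of 1194. Deviations of libraries with the same number correlated between -0.126 and 0.285, and those with different numbers between -0.304 and 0.140. The highest values, 0.285 and 0.254, were same-number pairs of sham and BDL+LIG. Pairing by number is thus unsettled, and the main fit did not use it. A log2 change of at least 1 left 14, 1 and 16 members, beside 9.38%, 1.07% and 16.8% of all genes tested. A mean of at least 5 FPKM left 1838, 575 and 2765 genes, and 1 member in BDL+LIG against BDL. There, no filter gave 623 genes, median-of-ratios scaling 630 and TPM 2056, and the 2 groups alone gave 3433 genes and 8 members.

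In BDL against sham the log2 change turned sign for Ugt1a9 without sham library 1 (0.070) and for Ugt1a1, Ugt1a6a and Ugt1a6b without sham library 3 (-0.13, -0.24 and -0.081). With any 1 library left out, it ran from -0.83 to 0.070 for Ugt1a9, -0.13 to 0.62 for Ugt1a1, -0.24 to 0.75 for Ugt1a6a and -0.081 to 0.71 for Ugt1a6b. For Sult1e1 in BDL+LIG against BDL it turned with TPM (0.066), without BDL library 2 or 3 (0.08 and 0.05) and without BDL+LIG library 2 or 3 (0.44 and 0.31), and ran from -0.76 to 0.44 with 1 library left out. The cause was not tested. With no filter on low values, 2, 0 and 4 of the 12 members it left out were called (3, 3 and 4 at an unadjusted p under 0.05), beside 13%, 2.9% and 28.9% of all genes fitted.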
